A study of Rattus norvegicus with 54 samples.

Results

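The fibrillar collagens I, III, V and XI were followed through 7 genes, Col1a1, Col1a2, Col3a1, Col5a1, Col5a2, Col5a3 and Col11a1, which were matched by symbol in the deposited rat gene tables. Each of the 7 symbols was listed for all 54 libraries, so that 7 of the 40319 listed genes are described here. Col11a1 had a count of 0 in Sham remote replicate 2 and Sham infarct replicate 4. They were chosen by name as a family, with earlier results of these data already known.

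Fibrillar collagens are triple helices that are secreted as procollagens, trimmed at both ends, packed into staggered fibrils and crosslinked. Type I collagen is built mostly of alpha 1 chains (Col1a1) with an alpha 2 chain (Col1a2) and gives a scar its tensile strength, whereas type III collagen, made of Col3a1 chains alone, forms finer and more compliant fibrils. Type V (Col5a1, Col5a2, Col5a3) and type XI (Col11a1) are minor chains that start fibrils and limit their diameter, and Col11a1 is best known from cartilage. In the infarcted heart these chains come mainly from activated fibroblasts, and the balance of type I to type III is commonly read as a property of the maturing scar.

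All animals were female athymic rats of the F344/NJcl-rnu/rnu strain, obtained at 8 weeks of age, whose lack of a thymus leaves them without mature T cells and lets them carry human cells. The Sham group had surgery without infarction. The MI group had a full ligation near the origin of the left anterior descending artery and no treatment, and the MI+Cell Sheet group had the same ligation with a bi-level sheet of human smooth muscle cells and human endothelial progenitor cells laid over the infarct. Hearts were taken after 1 week, 6 per group, and the left ventricle of each was cut into infarct, border and remote pieces, which gave 54 libraries of polyadenylated RNA from 18 animals in 9 groups of 6. Sham hearts have no infarct, so that their zone names stand for position only. The labels number these libraries as technical replicates, although separate hearts are described in the study's methods. If the labels are right, p-values measure technical spread. How reads of the human cells were handled is not given in the sources used here, and human transcripts were not analysed.

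Counts on genes ranged from 12699204 to 23397754 per library. A few hearts stood apart. Sham replicate 5 had the lowest summed level of cardiomyocyte markers and the highest of myofibroblast markers of its group in every zone, and its macrophage markers summed to 7045 CPM in the remote piece beside a group median of 360 CPM. MI+Cell Sheet replicate 1 had a remote piece with a summed myofibroblast marker level of 4450 CPM (counts scaled to a common library size) against 258 to 600.2 CPM in the other 5 hearts. The border piece of the same heart had a cardiomyocyte marker sum of 188 CPM beside a group median of 23931 CPM. MI replicate 1 had an infarct piece with a cardiomyocyte marker sum of 41056 CPM against 3510 to 25861 CPM in the others. Calls of the collagen genes that change without one of these hearts are given both ways. The lists of genes that make and remove collagen were tested with all hearts only.

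The first question was how ligation alone changed the collagens in the infarct zone. All 7 genes were higher in MI than in Sham infarct pieces, with changes from about 2-fold for Col5a3 to over 100-fold for Col11a1, and in none of the 7 did the 6 MI libraries overlap the 6 Sham libraries. Against Sham in the infarct and border zones, Col11a1 passed the filter on low counts only through the infarcted hearts. Its calls and gaps there are thus no separate support. Of 15758 genes tested, 49.9% were called at an adjusted p under 0.05 (edgeR) and 22.7% were called higher, while 8.74% lay wholly above Sham. The members' median log2 fold change was 2.81 beside -0.02 over all genes tested. In bulk tissue, fewer cells of a type and less RNA per cell cannot be told apart.

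Col1a1, the main chain of scar collagen, ranged from 467 to 719 CPM in Sham infarct pieces with a median of 617 CPM. In MI infarct pieces it ranged from 2725 to 11054 CPM with a median of 8727 CPM. Even the lowest MI heart, replicate 1, was thus well above the highest Sham heart. The log2 fold change was 3.70 ± 0.33 (SE), or 12.99-fold (edgeR, adjusted p = 4.1e-05), and it was 3.90 without MI replicate 1.

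Col1a2, its partner chain, had medians of 701 CPM in Sham (549 to 841 CPM) and 6766 CPM in MI (2254 to 7993 CPM). The log2 fold change was 3.10 ± 0.30 (edgeR, adjusted p = 4.41e-05). Col3a1, the chain of type III collagen, had medians of 1765 CPM in Sham (1340.5 to 2318 CPM) and 13703 CPM in MI (6162 to 17787 CPM). MI replicate 1 was again the lowest MI heart for both genes and still lay above Sham. The log2 fold change of Col3a1 was 2.81 ± 0.29 (edgeR, adjusted p = 6.2e-05).

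The chains of type V collagen did not move by equal amounts. Col5a1, present in most type V molecules, had medians of 198 CPM in Sham (183 to 242 CPM) and 1288 CPM in MI (487 to 1595 CPM), a log2 fold change of 2.52 ± 0.24 (edgeR, adjusted p = 4.36e-05). Col5a2, its usual partner, had medians of 139 CPM (137 to 162 CPM) and 1091 CPM (395 to 1228 CPM), a log2 fold change of 2.74 ± 0.23 (edgeR, adjusted p = 3.64e-05). Both genes therefore kept wide gaps between the groups. Col5a3, a chain of restricted distribution, had medians of 87.8 CPM in Sham (47.6 to 106 CPM) and 176 CPM in MI (132 to 185 CPM). Its log2 fold change was 0.97 ± 0.17 (edgeR, adjusted p = 0.00111), and its 95% interval of 0.61 to 1.34 lay below the interval of every other member.

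Col11a1, the cartilage-associated chain of type XI collagen, was at the edge of detection in Sham and clearly measured after infarction. Sham infarct pieces held 0 to 24 counts per library, with a median of 0.222 CPM and a highest value of 1.37 CPM. MI infarct pieces ranged from 10.7 to 122 CPM with a median of 81.7 CPM. No MI heart came near the Sham range. The log2 fold change was 7.33 ± 0.77 (edgeR, adjusted p = 6.54e-05), and its size rests on the very low Sham counts.

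**Figure D1:**
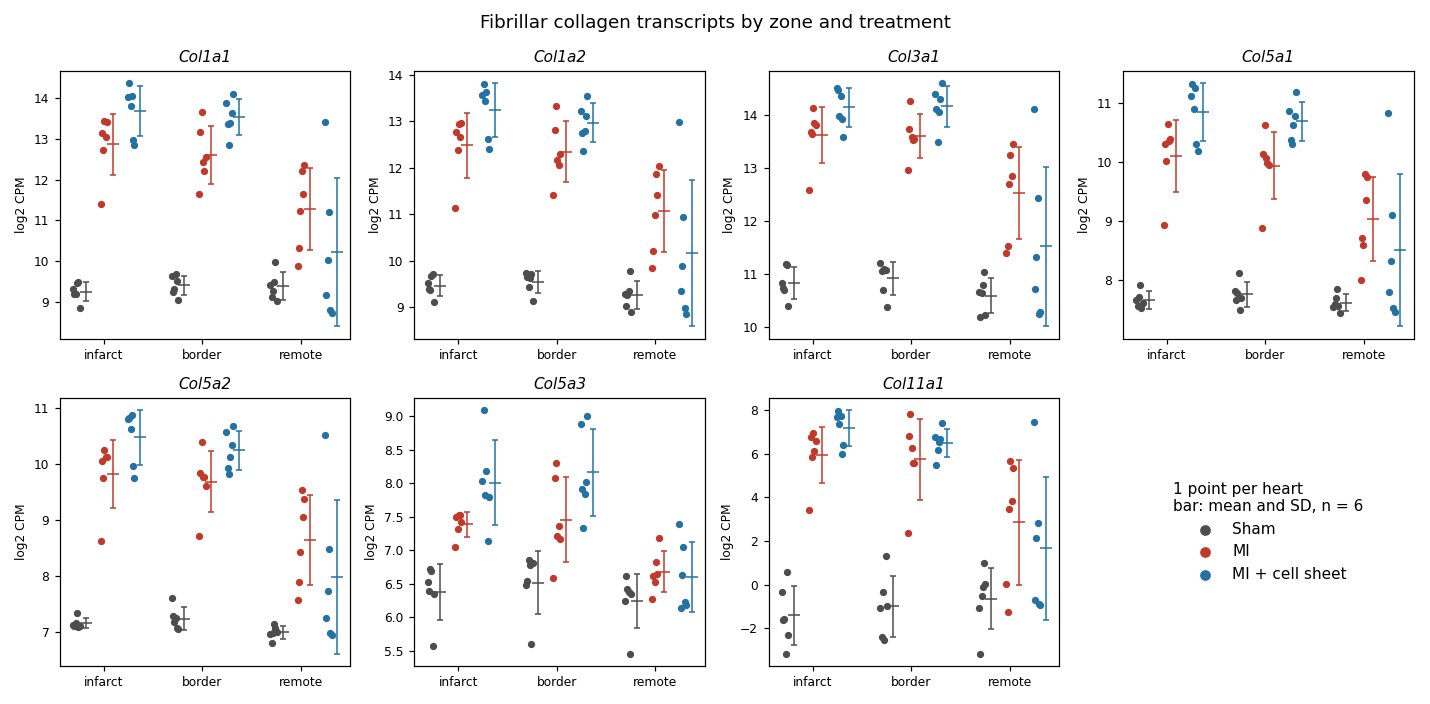
Level of each fibrillar collagen gene in every library (vertical axis, log2 CPM with a prior count of 2; horizontal axis, zone), 1 point per heart, with the mean and SD of the 6 hearts of a group beside the points. MI and MI+Cell Sheet infarct pieces lie wholly above Sham for all 7 genes, Col5a3 shows the smallest gap, and in the remote zone 1 MI+Cell Sheet heart reaches a Col1a1 level of 10868 CPM while the other 5 lie between 425 and 2360 CPM.

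In the border zone the picture was similar. All 7 genes were again higher in MI than in Sham, with 41.7% of 15641 genes called and 18.4% called higher (edgeR), and 6 of the 7 had no overlap between groups where 6.73% of all genes lay wholly above Sham. Col1a1 had medians of 686 CPM in Sham (534 to 821 CPM) and 5765 CPM in MI (3198 to 12754 CPM), a log2 fold change of 3.33 ± 0.34 (edgeR, adjusted p = 0.000111). Col3a1 had a log2 fold change of 2.70 ± 0.28, Col1a2 of 2.91 ± 0.31 and Col11a1 of 6.88 ± 0.97. Col5a3 was the member whose groups overlapped, since the lowest MI heart (96.4 CPM) lay within the Sham range of 48.4 to 116 CPM, and its log2 fold change was 1.01 ± 0.29 (edgeR, adjusted p = 0.017).

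The remote zone, far from the ligated territory, showed smaller differences that still passed the test in 6 of 7 genes, where 25.8% of 15294 genes were called and 11.7% were called higher (edgeR). Col1a1 had medians of 653 CPM in Sham (527 to 1015 CPM) and 2816 CPM in MI (944 to 5284 CPM), and its log2 fold change was 2.11 ± 0.39 (edgeR, adjusted p = 0.00274). The lowest MI heart overlapped the highest Sham heart for this gene. Col3a1 went from a median of 1609 CPM (1169 to 2109.7 CPM) to 6976 CPM (2704 to 11229.6 CPM) with no overlap, a log2 fold change of 2.10 ± 0.35 (edgeR, adjusted p = 0.00171). Groups were also separate for Col1a2, Col5a1 and Col5a2, 4 of 7 genes against 3.89% of all genes wholly above Sham. Col5a3 did not pass (log2 fold change 0.42 ± 0.18, edgeR, adjusted p = 0.107).

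Whether ligation acted more strongly near the infarct was tested as an interaction, with the pieces of a heart blocked by animal. The MI against Sham difference was larger in the infarct zone than in the remote zone for 6 of 7 genes, where 28.9% of 16445 genes passed and 13.6% passed in this direction (edgeR). The extra log2 change was 1.70 ± 0.28 for Col1a1 (edgeR, adjusted p = 0.00153) and 0.83 ± 0.29 for Col3a1 (edgeR, adjusted p = 0.0421). The call of Col3a1 was fragile. Its adjusted p was 0.0511 to 0.0853 (edgeR) without MI replicate 1, 3, 4 or 5 or any single Sham heart. Col11a1 had an extra log2 change of 3.32 ± 1.25 that missed the threshold (edgeR, adjusted p = 0.059), and it passed when MI replicate 2 (adjusted p = 0.0104), 4 (0.0455) or 6 (0.0478) was left out. Between the border and remote zones no member passed, and neither did any of 16475 genes by edgeR, although 3995 had an unadjusted p under 0.05. DESeq2 called 10.8% of genes there, Col1a1 among them (adjusted p = 0.0236). Between the infarct and border zones no member passed by either tool. Neither did any of 16766 genes by edgeR, although 1430 had an unadjusted p under 0.05.

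The study's main question was what the cell sheet changed in infarcted hearts. In the infarct zone no member passed the test of MI+Cell Sheet against MI, and edgeR called 0 of 16196 genes, with 1341 at an unadjusted p under 0.05, while DESeq2 called 59 genes (0.33%) and none of the 7. All 7 estimates were above 0, with 5 of the 7 at an unadjusted p under 0.05. Col1a1 had a median of 15403 CPM in MI+Cell Sheet infarct pieces (7403 to 21042 CPM) beside the MI median of 8727 CPM, and the groups overlapped. Its log2 difference was 0.78 with a 95% interval from -0.0016 to 1.56 (edgeR, adjusted p = 0.604). For Col3a1 the difference was 0.48 (interval -0.11 to 1.08) and for Col11a1 1.08 (interval 0.04 to 2.13). Without MI replicate 1 still no member passed.

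MI replicate 1 was lowest of its group in the infarct zone for all 7 genes, and MI+Cell Sheet replicate 6 was lowest of its group for 5 of them. These pieces also held the highest cardiomyocyte marker sums of their groups, 41056 CPM and 36017 CPM, where the MI median was 13101 CPM and the MI+Cell Sheet median 3299 CPM. Their part in the collagen differences was not tested.

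In the border zone 18% of 16272 genes were called between MI+Cell Sheet and MI and 8.47% were called higher (edgeR), and none of the 7 collagens was among them. Col5a1 came nearest, with medians of 1041 CPM in MI (472 to 1588 CPM) and 1674 CPM in MI+Cell Sheet (1266 to 2341 CPM). Its log2 difference was 0.70 ± 0.26 (edgeR, adjusted p = 0.0784). Col1a1 went from a median of 5765 CPM to 11699 CPM (7328 to 17543 CPM), with a log2 difference of 0.83 ± 0.36 (edgeR, adjusted p = 0.129). Groups overlapped for every member. DESeq2, which called 20.1% of genes, called both of these (adjusted p = 0.0339 and 0.0466), and edgeR called both when MI replicate 3, the highest MI heart of this zone, was left out (adjusted p = 0.0406 and 0.0496). The other 5 genes had log2 differences from 0.20 for Col11a1 to 0.72 for Col5a3, with adjusted p from 0.166 to 0.858 (edgeR). The tissue of the border pieces was not alike. MI+Cell Sheet replicate 1 had a cardiomyocyte marker sum of 188 CPM there, beside a group median of 23931 CPM and an MI range of 5124 to 31154 CPM. It also had the highest macrophage marker sum of its group, 5782 CPM, which lay within the MI range of 2734 to 8714 CPM. Between the groups 3 of 6 tested adipocyte, 1 of 6 smooth muscle and 1 of 7 endothelial markers were called higher. Of 8 macrophage markers 1 was called lower (edgeR). The part of these marker differences in the collagen differences was not tested.

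In the remote zone the comparison turned on 1 heart. MI+Cell Sheet replicate 1 held 10868 CPM of Col1a1, 17518 CPM of Col3a1 and 177 CPM of Col11a1, whereas the other 5 MI+Cell Sheet hearts ranged from 425 to 2360 CPM, from 1209 to 5543 CPM and from 0.417 to 7.09 CPM. Its remote piece thus carried more of these transcripts than any MI remote piece, where the highest values were 5284, 11229.6 and 51.6 CPM. Its cardiomyocyte marker sum there was 25602 CPM beside 53186 to 74797 CPM in the other 5 hearts.

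With all 6 hearts, none of the 7 genes passed between MI+Cell Sheet and MI in the remote zone (edgeR, 17.1% of 15374 genes called, adjusted p from 0.647 to 0.926), and log2 differences ran from -0.46 for Col3a1 to 0.67 for Col11a1. Without replicate 1, 6 of the 7 genes were lower in MI+Cell Sheet than in MI, where 41.6% of 15502 genes were called and 20.8% were called lower (edgeR). Col1a1 was then lower by a log2 difference of -1.64 (adjusted p = 0.025), Col3a1 by -1.48 (adjusted p = 0.0218) and Col11a1 by -2.95 (adjusted p = 0.0386). Col5a3 alone did not pass, with a log2 difference of -0.24 (adjusted p = 0.327). Marker lists moved in the same comparison. Without replicate 1, 9 of 10 fibroblast, 5 of 8 myofibroblast, 7 of 8 macrophage and 6 of 6 proliferation markers were called lower in MI+Cell Sheet, and 5 of 10 cardiomyocyte and 4 of 6 smooth muscle markers were called higher (edgeR). The summed cardiomyocyte markers of the other 5 hearts (53186 to 74797 CPM) lay wholly above those of MI (32345 to 52324 CPM), and their summed macrophage markers (406 to 759 CPM) wholly below (859 to 3109.6 CPM). With all 6 hearts, 3 fibroblast markers, 1 macrophage marker and no myofibroblast or proliferation marker were called lower. In that version 1 cardiomyocyte and 3 smooth muscle markers were called higher (edgeR). All markers of these lists had counts in both groups, and their part in the collagen differences was not tested. Both versions are given because nothing in the labels marks this heart as different. Leaving out MI replicates or other MI+Cell Sheet hearts one at a time gave no call for any member in this zone.

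Comparisons with Sham share the Sham libraries used for MI and are given side by side only. MI+Cell Sheet infarct pieces had all 7 genes higher than Sham (57.9% of 15687 genes called, 28.6% higher, edgeR), with log2 fold changes of 4.50 ± 0.36 for Col1a1, 3.32 ± 0.31 for Col3a1, 1.71 ± 0.31 for Col5a3 and 8.48 ± 0.70 for Col11a1. Border pieces also had all 7 higher (43.6% of 15960 genes called, 20.4% higher), with 4.14 ± 0.31 for Col1a1 and 3.23 ± 0.33 for Col3a1. No member overlapped Sham in either zone, where 11.7% and 9.55% of all genes lay wholly above it.

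In remote pieces none of the 7 passed against Sham, as 1 of 15157 genes did (0.0066%, edgeR), although 6 of the 7 had an unadjusted p under 0.05, as did 1520 of the 15157 genes. DESeq2 called 1.12% of genes and no member. Col1a1 had a median of 812 CPM there beside the Sham median of 653 CPM, and a log2 difference of 1.93 ± 0.77 (edgeR, adjusted p = 0.457). Without replicate 1 that difference was 0.47 (adjusted p = 0.731). With all 9 groups in a single fit, 6 of the 7 passed, as did 1.03% of genes (edgeR, Col1a1 adjusted p = 0.045). That fit shares 1 estimate of the spread and counts the pieces of a heart as independent. It was not repeated without replicate 1.

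**Figure D2:**
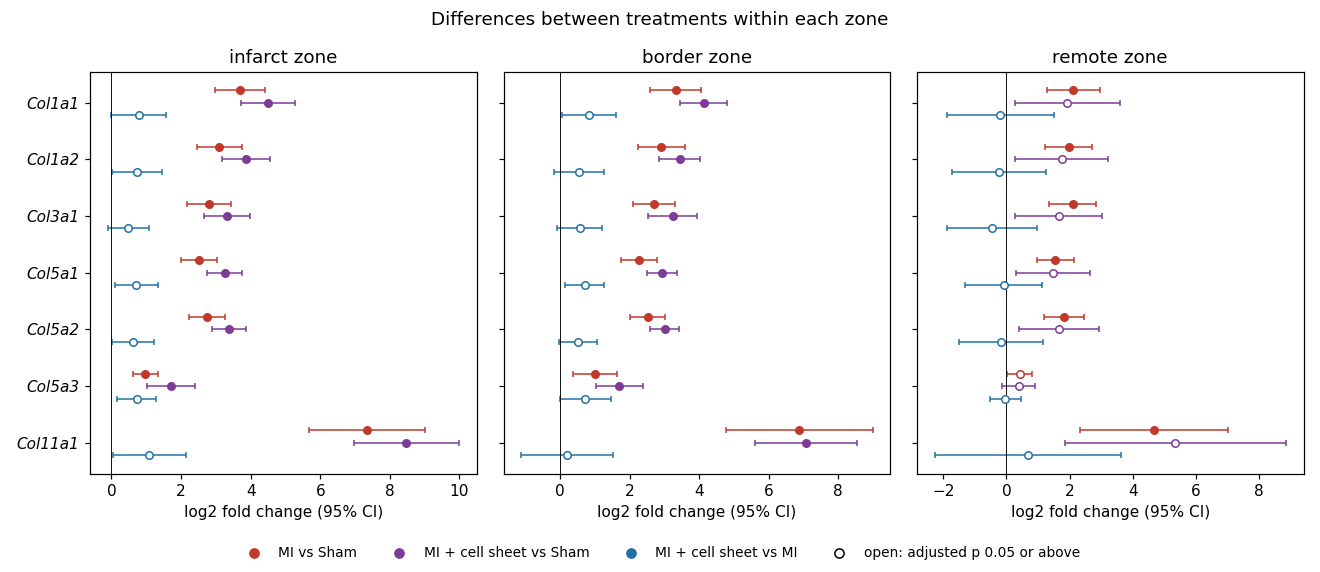
Log2 fold changes of the 7 genes (horizontal axis) with 95% confidence intervals for the 3 comparisons of treatments, 1 panel per zone, filled where the adjusted p from edgeR was under 0.05. MI against Sham was called for 7, 7 and 6 genes in the infarct, border and remote zones, MI+Cell Sheet against MI was called for none, and the remote intervals that include MI+Cell Sheet hearts are wide.

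Pieces of the same heart were compared with the animal as a block. In MI hearts all 7 genes were higher in the infarct piece than in the remote piece, and in all 6 animals for each gene, where 36.4% of 15901 genes were called and 18.3% higher (edgeR). Col1a1 differed by a log2 value of 1.55 ± 0.28 (adjusted p = 0.00936) and Col5a3 by 0.70 ± 0.11 (adjusted p = 0.00874). The calls of Col3a1 and Col11a1 were less stable. Col3a1 (adjusted p = 0.0252) had adjusted p of 0.0625, 0.0517, 0.07 and 0.0665 without MI replicates 1, 3, 4 and 5, and Col11a1 (adjusted p = 0.0235) had 0.052 and 0.057 without replicates 3 and 5.

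In MI+Cell Sheet hearts the step between zones was steeper in the estimates. All 7 genes were higher in infarct than in remote pieces (62.8% of 15854 genes called, 31.5% higher, edgeR), with log2 differences of 3.53 ± 0.75 for Col1a1, 2.65 ± 0.68 for Col3a1 and 5.62 ± 1.21 for Col11a1. All 7 were also higher in border than in remote pieces (56.4% of 15904 genes called, 29.2% higher), with 3.38 ± 0.78 for Col1a1 and 1.58 ± 0.28 for Col5a3. Without replicate 2 the border calls of Col3a1 and Col11a1 were lost (adjusted p = 0.0514 and 0.0503). Infarct and border pieces gave no call for any member in any treatment group by edgeR or DESeq2, with 882, 2213 and 1125 genes at an unadjusted p under 0.05 in MI, MI+Cell Sheet and Sham hearts (edgeR). The member among these was Col1a1 in Sham, and the calls over all genes were 0, 0 and 1 (0.00664% in Sham).

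Whether that steeper step differed from the one in untreated hearts was tested directly. The interaction of treatment and zone, infarct against remote, gave log2 estimates of 2.00 ± 0.70 for Col1a1, 1.61 ± 0.62 for Col3a1 and 2.98 ± 1.43 for Col11a1, and none of the 7 passed (adjusted p from 0.13 to 0.213, edgeR, which called 0 of 16902 genes with 4190 at an unadjusted p under 0.05). Of the 7, 6 had an unadjusted p under 0.05. DESeq2 called 11.3% of genes and 3 members, Col3a1, Col5a1 and Col5a2. Without MI+Cell Sheet replicate 1, edgeR called 6 members, with 7.98% of 17041 genes called in this direction and an estimate of 2.45 for Col1a1 (adjusted p = 0.0184).

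Border against remote in MI hearts gave another split between tools. The border piece was higher in all 6 animals for 6 of the genes and in 5 animals for Col5a3. By edgeR none of the 7 passed (adjusted p from 0.0751 to 0.107) and neither did any of 15738 genes, with 5943 genes and all 7 members at an unadjusted p under 0.05. DESeq2 called all 7, with 24.4% of genes called. The Col1a1 log2 difference was 1.30 ± 0.44 by edgeR.

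Sham hearts served as the background for position alone, and their zone differences were small. Col11a1 did not pass the filter on low counts there, so that 6 members were tested. Infarct against remote gave a call for Col3a1 only (0.24 ± 0.08, adjusted p = 0.0396, edgeR, 32.4% of 15077 genes called). Border against remote gave calls for Col1a2 (0.27 ± 0.09, adjusted p = 0.0416) and Col5a3 (0.25 ± 0.08, adjusted p = 0.0341, 25.7% of 15074 genes called). These calls were fragile. That of Col3a1 was lost without Sham replicate 2, 4 or 6 (adjusted p from 0.0734 to 0.169), that of Col1a2 without any heart but replicate 5 (0.0604 to 0.159) and that of Col5a3 without replicate 1, 3, 4 or 6 (0.0865 to 0.1). No log2 difference between Sham zones exceeded 0.31 for any member.

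**Figure D3:**
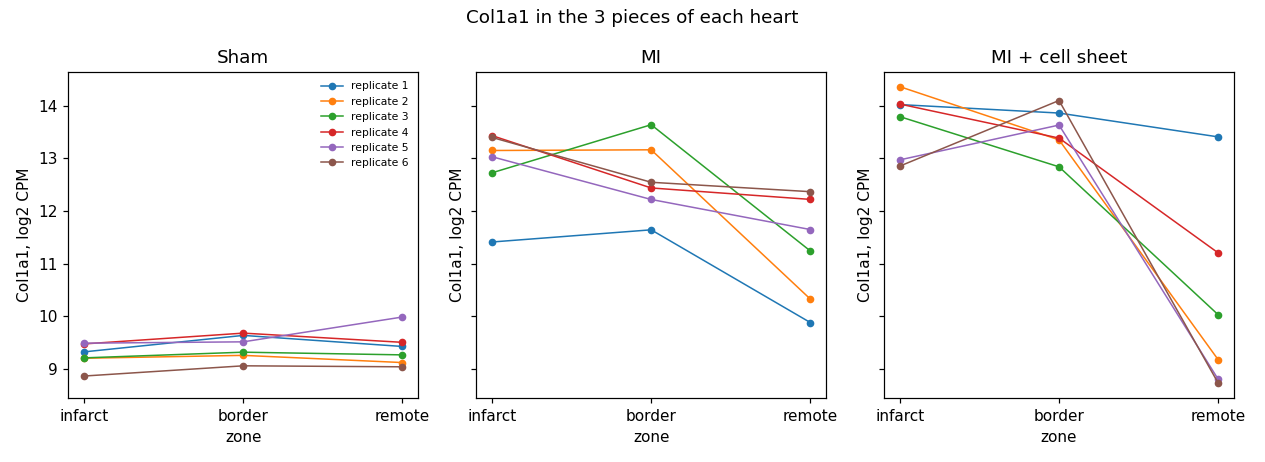
Col1a1 (vertical axis, log2 CPM) in the infarct, border and remote piece of each heart, 1 line per heart and 1 panel per treatment group. Sham lines are nearly flat, MI lines fall towards the remote piece, and 5 of the 6 MI+Cell Sheet lines fall steeply while replicate 1 stays at 10868 CPM.

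The order of Col1a1 medians over the 9 groups, from lowest to highest, was Sham infarct, Sham remote, Sham border, MI+Cell Sheet remote, MI remote, MI border, MI infarct, MI+Cell Sheet border and MI+Cell Sheet infarct. The ranges of neighbouring groups in this order overlapped in every case. As a share of all counts on genes, the 7 members together took a median of 0.310% in Sham infarct pieces (0.249% to 0.429%), 3.59% in MI infarct pieces (1.22% to 4.32%) and 5.49% in MI+Cell Sheet infarct pieces (2.86% to 7.02%). The shares in remote pieces had medians of 0.298% in Sham, 1.36% in MI and 0.397% in MI+Cell Sheet, where replicate 1 reached 4.30%.

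The balance of type I to type III collagen was measured as the ratio of Col1a1 counts to Col3a1 counts within each library, which needs no scaling between libraries. Gene lengths differ, so that only changes of the ratio and not its absolute value compare the 2 chains. The ratio was higher after ligation in the infarct and border zones, and no difference passed in the remote zone.

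In the infarct zone the ratio ranged from 0.307 to 0.355 in Sham hearts, with a median of 0.346. In MI hearts it ranged from 0.442 to 0.754, with a median of 0.594. No MI heart overlapped the Sham hearts. The mean log2 difference was 0.82, or 1.76-fold (exact permutation test, 2-sided, p = 0.00216, the smallest p that 6 against 6 hearts allow, adjusted p = 0.00487 over 9 comparisons).

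The border zone gave a smaller rise of the same kind, from a median of 0.358 in Sham (0.287 to 0.400) to 0.480 in MI (0.402 to 0.677), a log2 difference of 0.52 without overlap (exact permutation p = 0.00216, adjusted p = 0.00487). In the remote zone the medians were 0.434 in Sham (0.386 to 0.481) and 0.436 in MI (0.349 to 0.491). These remote groups overlapped almost fully, and their log2 difference was -0.05 (exact permutation p = 0.626, adjusted p = 0.704). The fold changes of the 2 genes in remote MI pieces had been 4.33 for Col1a1 and 4.28 for Col3a1.

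MI+Cell Sheet hearts had ratios from 0.519 to 0.928 in the infarct zone, with a median of 0.758, and from 0.591 to 0.709 in the border zone, with a median of 0.634. Both zones lay above Sham without overlap (log2 differences of 1.11 and 0.88, each with exact permutation p = 0.00216, adjusted p = 0.00487). Against MI the log2 difference was 0.29 in the infarct zone (exact permutation p = 0.13, adjusted p = 0.195) and 0.36 in the border zone (exact permutation p = 0.0433, adjusted p = 0.0779). The border difference passed without MI replicate 2 (0.44, exact permutation, adjusted p = 0.0195) or without MI replicate 3 (0.43, exact permutation, adjusted p = 0.0312), which are the MI border pieces with the highest ratios. In the remote zone the median was 0.389 (0.339 to 0.620) and the log2 difference from MI was -0.04 (exact permutation p = 0.777, adjusted p = 0.777). Replicate 1 again held the highest remote ratio.

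Within hearts, the ratio in infarct pieces exceeded that in remote pieces in 6 of 6 MI hearts (log2 difference 0.49) and 6 of 6 MI+Cell Sheet hearts (0.83), and it was lower in 6 of 6 Sham hearts (-0.37). With 6 pairs the exact permutation test allows no p below 0.0312, which each of the 3 comparisons reached, and none passed after adjustment over 9 comparisons (adjusted p = 0.0563). In Sham hearts the remote piece, with a median ratio of 0.434, lay wholly above the infarct piece. The order of the zones in Sham was thus the reverse of that in infarcted hearts.

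**Figure D4:**
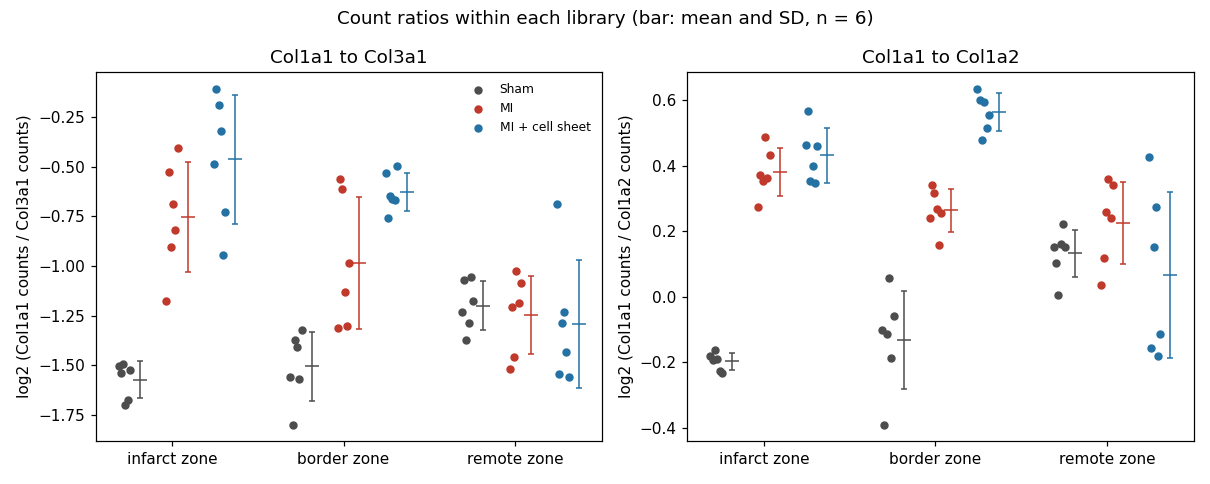
Log2 ratio of Col1a1 to Col3a1 counts (left) and of Col1a1 to Col1a2 counts (right) in every library by zone and treatment, with the mean and SD of 6 hearts beside the points. In the infarct and border zones the MI and MI+Cell Sheet hearts lie above Sham for both ratios, and in the border zone the 6 MI+Cell Sheet hearts lie above all 6 MI hearts for Col1a1 to Col1a2.

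Other ratios within a library showed which chains moved apart, and 36 such comparisons were adjusted together. The 2 chains of type I collagen did not rise equally. Col1a1 to Col1a2 had a median of 0.876 in Sham infarct pieces (0.851 to 0.892) and 1.29 in MI infarct pieces (1.21 to 1.40), a log2 difference of 0.58 (exact permutation p = 0.00216, adjusted p = 0.00599). In the border zone it was 0.928 in Sham, 1.20 in MI (1.12 to 1.27) and 1.49 in MI+Cell Sheet (1.39 to 1.55). The MI+Cell Sheet and MI border hearts did not overlap, and their log2 difference was 0.30 (exact permutation p = 0.00216, adjusted p = 0.00599). In the infarct zone the same comparison gave 0.05 (exact permutation, adjusted p = 0.356).

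Within type V collagen, Col5a1 to Col5a2 fell from a median of 1.43 in Sham infarct pieces to 1.20 in MI infarct pieces, a log2 difference of -0.22 without overlap (exact permutation p = 0.00216, adjusted p = 0.00599). In the border zone it was higher in MI+Cell Sheet (median 1.37, 1.23 to 1.42) than in MI (median 1.19, 1.11 to 1.25), a log2 difference of 0.19 (exact permutation p = 0.00433, adjusted p = 0.0104). The type V chain fell relative to type I after ligation. Col5a1 to Col1a1 went from a median of 0.329 in Sham to 0.149 in MI infarct pieces, a log2 difference of -1.15 (exact permutation p = 0.00216, adjusted p = 0.00599). Col11a1 moved the other way, and its ratio to Col5a1 was 42.9-fold higher in MI than in Sham infarct pieces on the scale with an offset of 0.5 counts (exact permutation p = 0.00216, adjusted p = 0.00599). None of the 4 ratios passed between treatments in the remote zone (exact permutation, adjusted p from 0.125 to 0.83).

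Genes that make, trim, crosslink and remove fibrillar collagen were followed in 9 lists. In the infarct zone of MI against Sham, where 22.7% of all genes were called higher and 27.2% lower, 15 of 16 tested fibril assembly and surface partners, 16 of 19 chain modification and folding genes, 4 of 5 crosslinking genes, 5 of 7 propeptide removal genes and 8 of 9 degradation and uptake genes were higher (edgeR). The medians of these 5 lists ran from 1.16 to 2.24 on the log2 scale, beside -0.02 for all genes. Lox, the lysyl oxidase that starts crosslinks, went from a mean of 27.1 to 408 CPM (log2 fold change 3.90 ± 0.30, adjusted p = 2.88e-05), and Cthrc1, a secreted protein of collagen-producing fibroblasts, from 2.75 to 217 CPM (6.26 ± 0.57, adjusted p = 4.17e-05). P4ha3, a prolyl hydroxylase subunit, rose by 4.36 ± 0.45 (adjusted p = 6.19e-05), Pcolce, an enhancer of propeptide cleavage, by 2.37 ± 0.25 (adjusted p = 6.92e-05), and Mmp16, a membrane-bound matrix metalloproteinase, by 2.64 ± 0.31 (adjusted p = 0.000105).

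The remaining lists were more mixed. Of the secretion genes, 3 of 6 were higher, led by the coat protein Sec23a (0.65 ± 0.10, adjusted p = 0.00056), and 2 were lower, led by the motor protein Kif5b (log2 fold change -0.78 ± 0.23, adjusted p = 0.0136). Of the collagen receptors 3 of 8 were higher and none lower, with Itga11, the fibroblast collagen integrin chain, at 3.73 ± 0.46 (adjusted p = 0.000158). Of the transcription and upstream signals 10 of 20 were higher, with Ccn2, a matricellular target of TGF-beta signalling, at 2.88 ± 0.32 (adjusted p = 8.29e-05), and 3 were lower, with the homeobox factor Mkx at -1.87 ± 0.38 (adjusted p = 0.00264). Of the other fibrillar chains, Col24a1 (1.07 ± 0.32, adjusted p = 0.016) and Col27a1 were higher, 2 of 3 tested. Among modification genes the channel gene Tmem38b was lower (-0.93 ± 0.16, adjusted p = 0.000916).

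Few of these genes separated MI+Cell Sheet from MI. In the border zone calls were made for 2 of 6 secretion genes, Sec31a and Mia3, for 1 of 9 collagen receptors and for 2 of 20 upstream genes, and the other 6 lists held no call (edgeR, 18% of all genes called). Sec31a, a coat protein of the vesicles that carry procollagen, was higher (0.48 ± 0.10, adjusted p = 0.00763), as were Adgrg1, a receptor for type III collagen (0.78 ± 0.16, adjusted p = 0.00584), and Smad3, a transducer of TGF-beta signals (0.29 ± 0.09, adjusted p = 0.0409). Cbfb, the partner of Runx factors, was lower (-0.30 ± 0.09, adjusted p = 0.036).

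In the remote zone Tgfb1, the cytokine that drives collagen transcription in fibroblasts, was lower in MI+Cell Sheet than in MI with all 6 hearts (mean 36.8 against 68.2 CPM, log2 difference -0.90 ± 0.23, adjusted p = 0.0238, edgeR, 17.1% of genes called). Ogn, a small leucine-rich proteoglycan of the matrix, was also lower (-0.79 ± 0.25, adjusted p = 0.0438), as was the collagen receptor Ddr2 (-0.62 ± 0.19, adjusted p = 0.0422), while the related receptor Ddr1 was higher (0.33 ± 0.11, adjusted p = 0.0473). Dcn and Cbfb were lower as well, and no other gene of the 9 lists passed in this zone. The 9 lists were not retested without MI+Cell Sheet replicate 1, so that these calls are given with all 6 hearts only. In the infarct zone none of the genes of the 9 lists passed (edgeR).

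Marker lists of the cell types in the tissue moved with the collagens to different degrees. The 10 fibroblast markers summed to a median of 6337 CPM in Sham infarct pieces (4430 to 8573 CPM), 6677 CPM in MI (5700 to 7678 CPM) and 6759 CPM in MI+Cell Sheet (5475 to 8387 CPM), so that the ranges overlapped. Gene by gene, 7 of the 10 were called higher in MI than in Sham and Gsn, an actin-severing protein, was lower (log2 fold change -1.39, adjusted p = 0.0221, edgeR), with a median log2 fold change of 0.77 over the list. The 8 myofibroblast markers summed to 161 CPM (103 to 579 CPM), 3666 CPM (1206 to 4712 CPM) and 5513 CPM (3933 to 8708 CPM), and all 8 were higher in MI than in Sham. The 10 cardiomyocyte markers summed to 69538.5 CPM (25596 to 82627 CPM), 13101 CPM (3510 to 41056 CPM) and 3299 CPM (981 to 36017 CPM), and all 10 were lower in MI than in Sham. All markers of these 3 lists had counts in every group. The myofibroblast list shares Postn, Cthrc1, Tnc and Fap with the lists of matrix genes above. The fibroblast list shares at least Pcolce, Ddr2 and Dcn with them, so neither list is independent of those genes. The part of cell composition in the collagen differences was not tested.

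Set against the fibroblast marker sum of the same library, the summed counts of the 7 collagens had a median ratio of 0.553 in Sham infarct pieces (0.378 to 0.955), 4.93 in MI (1.58 to 6.29) and 8.24 in MI+Cell Sheet (3.85 to 9.26). No Sham infarct piece reached the range of either infarcted group. The marker sum is no steady measure of fibroblasts, as 7 of its 10 genes were called higher in MI than in Sham there and Gsn lower (edgeR). The ratio is thus not collagen per fibroblast. In remote pieces the medians were 0.664 in Sham (0.470 to 1.51), 2.17 in MI (1.01 to 3.39) and 1.02 in MI+Cell Sheet (0.600 to 6.86), and the groups overlapped.

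**Figure D5:**
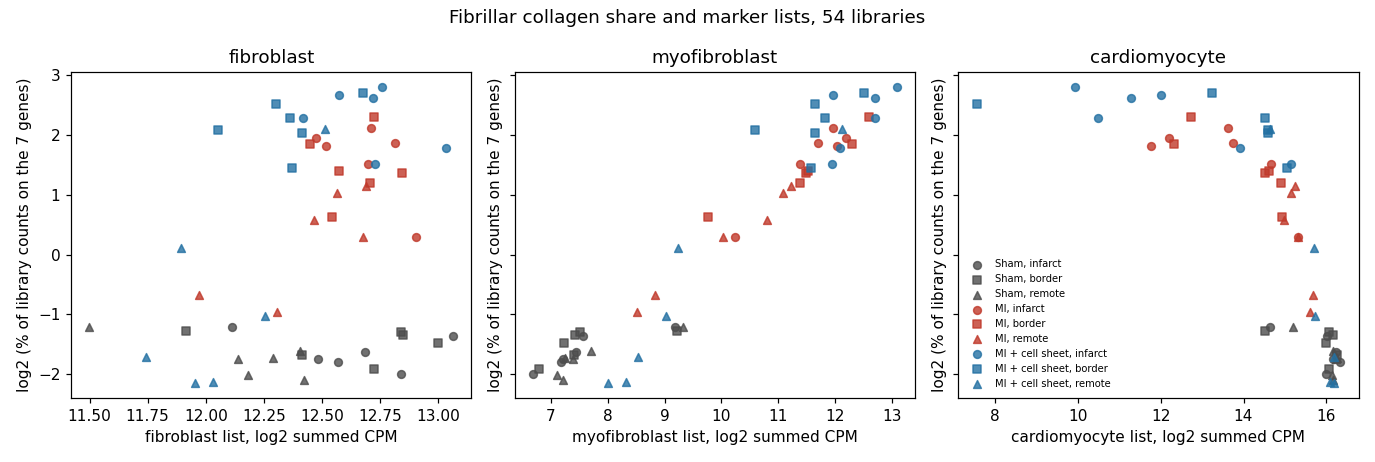
Share of library counts on the 7 genes (vertical axis, log2 of percent) against the summed level of fibroblast, myofibroblast and cardiomyocyte markers (horizontal axes, log2 CPM), 1 point per library, coloured by treatment and shaped by zone. Infarct pieces of MI (median share 3.59%) lie above those of Sham (0.310%) in myofibroblast sum (1206 to 4712 against 103 to 579 CPM) and overlap them in fibroblast sum, although 7 of the 10 fibroblast markers were called higher.

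The 7 genes followed each other closely. Over the 54 libraries with group means removed, Pearson's r of log2 CPM was 0.995 for Col1a1 and Col1a2, 0.973 for Col1a1 and Col3a1, and 0.977 for Col5a1 and Col5a2. Col5a3 stood apart, with r from 0.360 with Col11a1 to 0.676 with Col5a1. The points share libraries and, in sets of 3, hearts, so that these values are a description.

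Over 13293 other genes, those most like the mean of the 7 with group means removed were Col16a1 (r = 0.976), Col12a1 (r = 0.970), Antxr1 (r = 0.952), Cercam (r = 0.945), Col6a3 (r = 0.944), Mmp14 (r = 0.941), Fkbp10 (r = 0.940), Mmp2 (r = 0.935), Bmp1 (r = 0.933) and Olfml2b (r = 0.931). Several of these encode collagens or proteins that modify them. Col11a1 alone was nearest to Cthrc1 (r = 0.889), Srpx2 (r = 0.879) and Aebp1 (r = 0.876), and Col5a3 to Pde5a (r = 0.828), Nfatc4 (r = 0.816) and Maged1 (r = 0.814).

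Because these genes moved together, the 250 bases before their RefSeq starts were searched on both strands for 4 short motifs. RefSeq entries of the GRCr8 build were found for 5 of the 7 genes, Col1a2, Col5a1, Col5a2, Col5a3 and Col11a1. CCAAT, the motif of the factor NF-Y, was found in Col1a2, Col5a3 and Col11a1 (34.02% of 33469 rat promoters hold it). GGGCGG, the core of the Sp1 motif, was found in Col5a1, Col5a3 and Col11a1 (30.47% of promoters), TATAAA, the TATA box motif, in Col1a2 (12.93%) and TGANTCA, the AP-1 motif, in none of the 5 (6.34%). The stretches from the first to the last motif with 10 bases on each side are shown for the gene with TATAAA, for the member with the smallest change and for the member with the largest, 5′ to 3′ on the strand of the gene, with the motifs of either strand in capitals.
Col1a2 (GRCr8, chr4:33518326-33518402, plus strand): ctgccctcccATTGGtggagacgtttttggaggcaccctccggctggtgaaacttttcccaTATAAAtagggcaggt
Col5a3 (GRCr8, chr8:27625996-27626140, minus strand): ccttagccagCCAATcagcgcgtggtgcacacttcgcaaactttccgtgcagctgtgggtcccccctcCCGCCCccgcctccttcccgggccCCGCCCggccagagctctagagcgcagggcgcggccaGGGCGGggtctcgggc
Col11a1 (GRCr8, chr2:204508896-204509132, plus strand): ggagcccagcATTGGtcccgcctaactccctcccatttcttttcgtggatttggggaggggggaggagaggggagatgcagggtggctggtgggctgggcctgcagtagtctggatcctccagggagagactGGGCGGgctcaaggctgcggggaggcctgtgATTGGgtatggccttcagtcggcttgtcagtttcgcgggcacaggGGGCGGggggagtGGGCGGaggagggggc
Col5a3 and Col11a1, which differed most in their response to ligation, both hold CCAAT and GGGCGG. A match describes the letters of the window and not a bound site.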

How the data were processed

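RNA of 54 left ventricular pieces was sequenced as polyadenylated RNA. The authors aligned reads with STAR to the rat genome mRatBN7.2 and deposited raw read counts per gene for each library. Which counting tool and strand option they used is not given in the sources used here. Each table ended in 5 summary lines that name no gene, which held 17.0% to 42.8% of counts and were left out. Depth on genes was 12699204 to 23397754 counts, and intervals cover the spread between libraries. Symbols matched all 7 members.

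Counts were scaled by TMM and tested with edgeR 4.0.16 (quasi-likelihood, filterByExpr, Benjamini-Hochberg adjustment over all genes, threshold 0.05) in R 4.3.3, with the 2 groups of a comparison in each fit. Zones within hearts and interactions had the animal as a block. Levels are CPM scaled by TMM over 54 libraries, and log2 CPM used a prior count of 2. Ratios of counts within a library were compared with exact permutation tests in Python 3.11.15 (924 splits of 6 against 6, 64 sign flips of 6 pairs), with an offset of 0.5 counts for ratios other than Col1a1 to Col3a1. Alternatives were DESeq2 1.42.0, no TMM, no filter, at least 10 counts in every library, a replicate block, all 9 groups in a single fit and each heart left out. Within groups no 2 of 135 library pairs were identical, and all differed beyond sampling noise (chi-square per degree of freedom 7.97 or more, genes with at least 50 counts).

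Animal numbers recur across treatments, but same-numbered hearts did not deviate together (r from -0.63 to 0.51, over 0.1 in 16 of 54 pairs), so that they were not paired. Zones were paired because they came from the same heart per the labels' numbering. Their r ran from -0.46 to 0.93, over 0.1 in 36 of 54 pairs. It was over 0.1 in 6 of 6 pairs of each Sham comparison. In the MI and MI+Cell Sheet comparisons this held for 2 to 4 of 6 pairs. In data simulated for MI against Sham in the infarct zone, edgeR recovered 51 of 100 genes changed 2-fold and 79 of 100 changed 4-fold, and 130 of its 138 calls were true. Only 200 of 15522 genes were changed there, so these rates need not hold where 49.9% of genes were called. For the MI+Cell Sheet against MI interaction of infarct and remote, 29 of 100 and 81 of 100 were recovered, and 110 of 116 calls were true. The members and gene lists were chosen with earlier results of these data known. From each pathway list the gene with the largest called change in each direction was named, in the comparisons of MI with Sham in the infarct zone and of MI+Cell Sheet with MI in the border and remote zones, among genes with a mean log2 CPM of at least 1. Mia3, Dcn, Col27a1, Gsn and, in the remote zone, Cbfb were named beside them after their values were seen. Crtap, Pcolce2 and Tnxb of these lists were not matched by symbol.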

Additional observations from a re-analysis of the deposited data

Results flagged for a closer look

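In the infarct zone of MI, replicate 1 lay far below the other 5 hearts for 6 of the 7 genes. Its gap to the next heart took 0.65 of the group's range on the log2 scale for Col1a1 (2725 CPM against 6775 to 11054 CPM), 0.676 for Col1a2, 0.681 for Col3a1, 0.636 for Col5a1, 0.696 for Col5a2 and 0.684 for Col11a1 (10.7 CPM against 56.8 to 122 CPM), each above Dixon's critical value for 6 samples. The same piece had the highest cardiomyocyte marker sum of its group, 41056 CPM, and its part in these values was not tested.

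Sham replicate 5 was the lowest heart for Col5a3 in all 3 zones, with 43.8 CPM against 75.4 to 98.5 CPM in the remote piece (0.67 of the range), 48.4 CPM against 89.7 to 116 CPM in the border piece (0.706) and 47.6 CPM against 81.7 to 106 CPM in the infarct piece (0.675). This heart had the highest macrophage marker sum of Sham, 12279 CPM in the infarct piece beside a median of 580 CPM. Sham replicate 4 was highest for Col5a2 in the infarct piece (162 CPM against 137 to 144 CPM, 0.713 of the range). In all, 10 of 72 groups passed this limit, where chance gives about 1 in 20, and the genes of a library are not independent.

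The MI against Sham difference was larger in the infarct than in the remote zone by a log2 value of 1.70 for Col1a1, 1.21 for Col1a2, 0.83 for Col3a1, 1.02 for Col5a1, 1.01 for Col5a2 and 0.58 for Col5a3, tested as an interaction with edgeR.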

How the results depend on the processing

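Of the recomputed counts of called members, 314 stayed within 1.5 times the value reported and 22 did not. The share of all genes called under the same setting stands in parentheses. DESeq2 called 2 members for MI+Cell Sheet against MI in the border zone (20.1%), 7 for border against remote in MI (24.4%), 2 for infarct against remote in Sham (30.7%), 1 for the MI against Sham interaction of border and remote (10.8%), and 3 for the MI+Cell Sheet against MI interaction of infarct and remote (11.3%). A single fit of all 9 groups called 6 for MI+Cell Sheet against Sham in the remote zone (1.03%). Without TMM, 4 passed for border against remote in Sham (25.4%), Col5a3 passed for MI against Sham in the remote zone (0.56, adjusted p = 0.0326, 24.8% of genes), and the members' differences from Sham were larger by 0.127 to 0.278. Leaving out 1 heart gave 0 to 6 members for MI+Cell Sheet against MI in the remote zone and for its interaction of infarct and remote (6 without MI+Cell Sheet replicate 1, with 41.6% and 11.8% of genes), 0 to 2 in the border zone (2 without MI replicate 3, with 14.6%), 0 to 3 for infarct against remote in Sham (3 without replicate 5, with 27.1%) and 0 to 4 for border against remote in Sham (4 without replicate 5, with 18.6%). The causes were not tested.

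Without the replicate block, which pairs zones of a heart, 1 member passed for border against remote in MI (21.7% of genes) and 0 for infarct (7.17%) and border (2.04%) against remote in Sham, 5 passed for infarct against remote in MI (33.1%), and Col11a1 turned to -0.15 for infarct against border in MI and Col1a1 to -0.019 for border against remote in Sham (-0.00071 by DESeq2). Ratio differences without the pairing passed for border against remote in MI+Cell Sheet (0.66, exact permutation, adjusted p = 0.039) and for Sham infarct (-0.37, adjusted p = 0.0195) and border (-0.31, adjusted p = 0.039) against remote. With a replicate block over treatments, 6 pairs allow no p below 0.0312, and the ratio differences of MI from Sham of 0.82 (infarct) and 0.52 (border) and of MI+Cell Sheet from Sham of 1.11 and 0.88 had an adjusted p of 0.0703. That block turned Col11a1 to -2.16 for MI+Cell Sheet against MI in the remote zone (adjusted p = 0.393).

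Some differences changed sign with 1 heart left out. For the ratio these were MI against Sham (-0.091 to 0.0068, and 0.0099 as a difference of medians) and MI+Cell Sheet against MI (-0.17 to 0.0089) in the remote zone, while the border difference of MI+Cell Sheet from MI ranged from 0.29 to 0.44. For MI+Cell Sheet against MI in the remote zone the ranges were -1.64 to 0.045 for Col1a1, -1.01 to 0.095 for Col5a1, -1.24 to 0.035 for Col5a2, -0.24 to 0.079 for Col5a3 and -2.95 to 1.23 for Col11a1, and in the border zone -0.053 to 0.76 for Col11a1. For infarct against border they were -0.088 to 0.16 for Col3a1 and -0.17 to 0.14 for Col5a3 in MI, and -0.020 to 0.44 for Col1a1, -0.12 to 0.19 for Col3a1 and -0.42 to 0.065 for Col5a3 in MI+Cell Sheet. For border against remote in Sham Col1a1 ranged from -0.035 to 0.11. The MI against Sham interaction of infarct and border ranged from -0.010 to 0.22 for Col3a1 and -0.039 to 0.25 for Col5a3. That of MI+Cell Sheet against MI ranged from -0.31 to 0.18 for Col1a1, -0.044 to 0.44 for Col1a2, -0.15 to 0.17 for Col3a1, -0.18 to 0.23 for Col5a1, -0.057 to 0.33 for Col5a2 and -0.39 to 0.12 for Col5a3. Depth limits Col11a1 in Sham, where libraries held 0 to 50 counts, and ratios with Col11a1 had no value without an offset where its count was 0.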
